A study of Rattus norvegicus with 12 samples.

Results

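The genes described are 10 of hepatic bile acid synthesis and transport, measured in the liver of rats on a low protein diet. They were Cyp7a1, Cyp8b1, Cyp27a1, Cyp7b1, Hsd3b7, Akr1d1, Acox2, Slc27a5, Slc10a1 and Abcb11. The probes were those whose RefSeq accession belongs to 1 of these genes, a rule that uses no measured value. This gave 13 probes for the 10 genes, among 45598 probes on the array and 21874 genes tested. Abcb11 had 2 probes, Akr1d1 had 3 and each other gene had 1. All 13 probes were well above background on all 12 arrays, so no gene was lost to the filter on dim signal.

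The study fed adult male Wistar rats 5% casein (low protein, 6 rats) or 14% casein (control, 6 rats) in diets of equal energy, and took liver after 4 weeks. Total liver RNA was labelled with Cy3 and hybridised to single-colour Agilent arrays, 1 numbered liver sample per array. The design asks which liver metabolic genes respond to protein undernutrition. Whole liver was measured, so fewer cells of a type and less RNA per cell cannot be told apart, and the time of day at which livers were taken is not given in the labels.

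Hepatocytes convert cholesterol to bile acids by a classical route, which begins with Cyp7a1, and by an alternative route, which begins with Cyp27a1 and continues with Cyp7b1. Enzymes shared by both routes remodel the sterol ring and shorten the side chain, after which the bile acid is activated and joined to taurine or glycine. Transporters at the sinusoidal and canalicular faces of the hepatocyte keep bile acids circulating between liver and gut, and Cyp7a1 is held down by bile acid signals from the liver and the ileum and follows a daily rhythm.

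Each value is the log2 ratio of the processed signal to the 75th percentile of its array, so 0 is the level of a probe at that percentile. The percentile itself was 942 to 1317 signal units, and 61.2% to 69.9% of spots per array were well above background. The arrays lay on 2 slides, with low protein rats 5 and 6 and control rats 2 and 4 on slide 2 and the other rats on slide 1. Differences are low protein minus control, and a difference was called at a limma adjusted p under 0.05 over all genes. By that rule 6.53% of all genes were called, 3.48% higher and 3.05% lower in low protein livers. The median change of all genes was -0.025, and the median standard error of a change was 0.13.

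No bile acid gene was called: limma gave 0 of 10 higher and 0 of 10 lower, against the 6.53% of all genes called in either direction. None had an unadjusted p under 0.05 either, where 21.6% of all genes did. The diets overlapped for all 10 genes, and 4.98% of all genes had diets that did not overlap. Per probe, 0 of 13 were called, against 6.69% of all probes. The median change of the 10 genes was -0.00023 on the log2 scale.

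Upstream sequences are shown for Cyp8b1 and Cyp27a1, whose levels were opposed between rats (r = -0.60, not passing adjustment), and for Slc27a5, which held the other motif found. Each is the 250 bases before the annotated gene start, 5′ to 3′ on the strand of the gene, from RefSeq in the GRCr8 build. They lie at chr8:130457593-130457842 on the minus strand for Cyp8b1, chr9:83713282-83713531 on the plus strand for Cyp27a1 and chr1:82699336-82699585 on the minus strand for Slc27a5. Capitals mark an exact match to a searched motif, and the Cyp8b1 window held none.
Cyp8b1: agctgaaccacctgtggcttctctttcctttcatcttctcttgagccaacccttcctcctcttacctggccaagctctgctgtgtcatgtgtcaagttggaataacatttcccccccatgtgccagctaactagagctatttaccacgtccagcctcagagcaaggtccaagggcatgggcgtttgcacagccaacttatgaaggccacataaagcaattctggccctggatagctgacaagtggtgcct
Cyp27a1: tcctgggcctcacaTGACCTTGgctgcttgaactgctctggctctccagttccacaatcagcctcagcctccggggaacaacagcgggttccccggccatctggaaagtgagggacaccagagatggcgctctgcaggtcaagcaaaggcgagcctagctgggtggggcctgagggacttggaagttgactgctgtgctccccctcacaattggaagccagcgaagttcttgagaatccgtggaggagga
Slc27a5: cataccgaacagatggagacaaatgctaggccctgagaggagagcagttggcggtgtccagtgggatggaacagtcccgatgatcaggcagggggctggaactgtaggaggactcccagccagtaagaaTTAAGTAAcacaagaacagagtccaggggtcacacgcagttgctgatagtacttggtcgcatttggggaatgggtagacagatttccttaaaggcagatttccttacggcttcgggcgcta

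Of the 10 genes, 6 matched the promoter table, namely these 3 with Hsd3b7, Slc10a1 and Acox2. The Cyp27a1 window held the letters of the LRH-1 element, CAAGGTCA, on the strand opposite to the gene, at -236 to -229 from the start. LRH-1, encoded by Nr5a2, is a nuclear receptor of bile acid and cholesterol metabolism, and 1.33% of 33469 upstream windows of the same length held this motif. The Slc27a5 window held the D box letters, TTANNTAA, at -121 to -114, as did 5.32% of all windows. The D box is the element read by Dbp, Tef and Nfil3, and its match here reads as a match on both strands. A further 6 motifs were searched on both strands and found in none of the 6 windows. They were the FXR inverted repeat, the HNF4A direct repeat, the LXR direct repeat, the MAF element, the E box (CACGTG) and the ATF4 element (TGATGNAAN). Their shares of all windows were 0.0269%, 0.0508%, 0.00299%, 0.326%, 5.59% and 3.38% in that order. A match describes the letters alone, and near matches were not searched. The Cyp8b1 window holds caaggtcc, which differs from the LRH-1 letters CAAGGTCA only at the last base. Lack of an exact match thus does not show that an element is absent.

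Cyp7a1, the rate-limiting enzyme of the classical route, spanned 18.7-fold between the lowest and the highest liver. In low protein livers its level was -4.15 at the lowest, -1.36 at the median and -0.11 at the highest. In control livers these values were -2.09, -1.01 and 0.07. One liver, low protein rat 3, stood far below the other 11, and the other 5 low protein livers lay within the control range. In signal units that liver read 62.5, still well above background, beside 1219 in the highest low protein liver and 221 to 1155 in the controls. The mean was -1.59 ± 1.39 in low protein and -1.04 ± 0.93 in control livers (SD, n = 6 each), a difference of -0.55 ± 0.61 (SE, limma adjusted p = 0.667). As a ratio this was 0.683, with a 95% confidence interval of 0.273 to 1.71, so both a fall and a rise of over 1.5-fold lie within it. Without low protein rat 3 the difference was -0.04, so that liver carried most of it.

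Cyp8b1, the hydroxylase that directs the classical route to cholic acid, was 0.71, 1.02 and 1.77 at the lowest, median and highest low protein liver. The control livers gave 0.43, 0.78 and 1.46. The highest of each diet lay on slide 2, and the ranges overlapped over most of their length. The mean was 1.10 ± 0.37 in low protein and 0.84 ± 0.40 in control livers (SD, n = 6 each). The difference of 0.27 ± 0.21 did not pass the test (limma adjusted p = 0.509), and the ratio was 1.20 with an interval of 0.883 to 1.64.

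Cyp27a1, the mitochondrial enzyme that opens the alternative route and also oxidises the side chain, was read by a bright probe. Its low protein livers ranged over 4.99, 5.13 and 5.37 (lowest, median, highest), and its control livers over 4.87, 5.19 and 5.60. The low protein range lay inside the control range. The difference was -0.038 ± 0.12 (limma adjusted p = 0.895), a ratio of 0.974 with an interval of 0.818 to 1.16.

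Cyp7b1, the oxysterol hydroxylase that follows Cyp27a1, had the other wide spread, with 5.96-fold between its extreme livers. The low protein livers gave -2.28, -1.50 and -0.69 at the lowest, median and highest. The control livers gave -1.74, -1.12 and 0.29. Control rat 2 was the highest and low protein rats 4 and 6 the lowest, with the remaining 9 livers mixed. Means were -1.51 ± 0.65 in low protein and -0.93 ± 0.76 in control livers (SD, n = 6 each), and the difference of -0.58 ± 0.37 did not pass (limma adjusted p = 0.397). The ratio was 0.667 with an interval of 0.385 to 1.16. Without control rat 2 the difference was -0.34, and on slide 2 alone, with 2 rats per diet, it was -1.25, with -0.25 on slide 1.

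**Figure D1:**
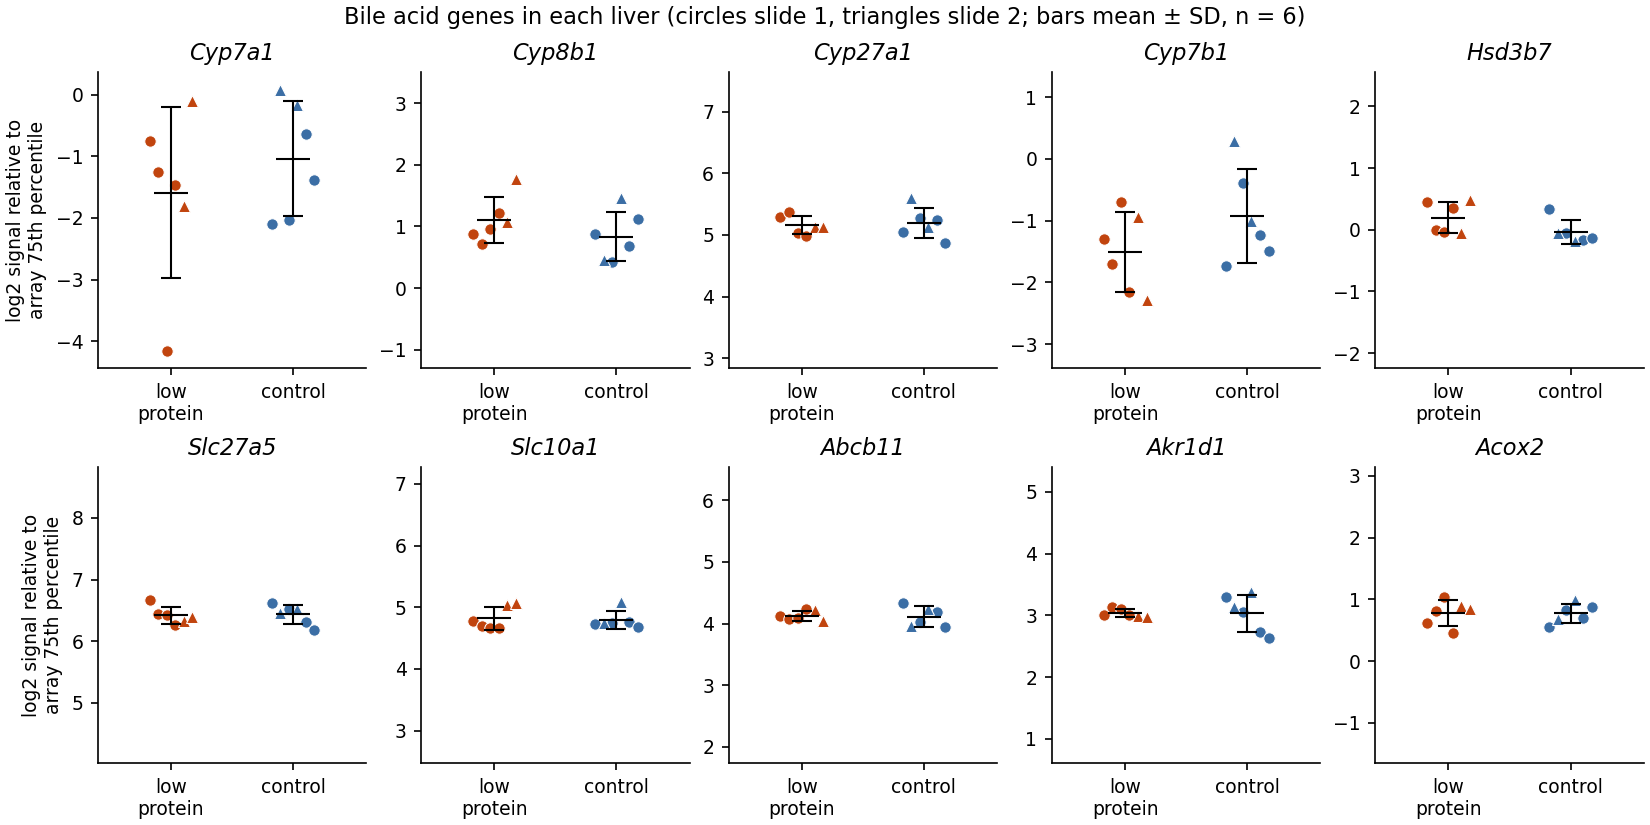
Log2 signal relative to the array's 75th percentile (y axis) of the brightest probe of each gene in each liver, low protein (orange) left of control (blue), with the mean and SD of 6 livers per diet and an equal axis span in every panel. The points of the diets overlap for all 10 genes, and Cyp7a1 shows 1 low protein liver at -4.15.

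Hsd3b7 catalyses the dehydrogenase step that both routes share, and among the brightest probes of each gene it came nearest to a difference. Its low protein livers were -0.05, 0.17 and 0.48 at the lowest, median and highest, and its control livers -0.18, -0.10 and 0.34. The low protein livers fell into 3 near 0.00 and 3 between 0.35 and 0.48, and 5 of 6 control livers lay below 0.00. The difference was 0.24 ± 0.13 (limma unadjusted p = 0.0849, adjusted p = 0.309), and the ratio was 1.18 with an interval of 0.974 to 1.43. Without control rat 1, whose value of 0.34 stood apart from its diet, the difference was 0.31 with an unadjusted p of 0.0205 and an adjusted p of 0.155.

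Akr1d1, the reductase that sets the ring geometry of bile acids, was read by 3 probes. On the brightest, the low protein livers lay within 2.97 to 3.13 and the control livers within 2.63 to 3.38. Their SD was 0.063 in low protein and 0.30 in control livers, around means of 3.03 and 3.04. The narrow low protein spread was not seen on the other probes, whose SDs were 0.32 and 0.19 in low protein and 0.34 in both cases in control livers. The 3 probes gave differences of -0.0028 ± 0.12, -0.17 ± 0.18 and -0.29 ± 0.15, of which the last had an unadjusted limma p of 0.0765 and an adjusted p of 0.289. The first and last thus lay further apart than the standard error of any of the 3, and none was called.

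Acox2, the peroxisomal oxidase that begins side-chain shortening, differed by 0.0023 ± 0.11, with low protein livers at 0.45 to 1.04 and control livers at 0.55 to 0.99. Slc27a5, the ligase that activates bile acids for conjugation, was 6.26, 6.41 and 6.67 at the lowest, median and highest low protein liver. The control livers gave 6.18, 6.49 and 6.61. The diets covered nearly the same range, with a difference of -0.017 ± 0.092 and a ratio of 0.988 with an interval of 0.861 to 1.14. Acox2 had an interval of 0.851 to 1.18 about a ratio of 1.00. Both intervals were narrower than that of Cyp27a1.

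The transporters were among the steadiest of the 10 genes. Slc10a1, which takes bile acids up from the blood at the sinusoidal face, was 4.67, 4.73 and 5.06 at the lowest, median and highest low protein liver, and 4.67, 4.74 and 5.08 in control livers. Its difference was 0.031 ± 0.10, with a ratio of 1.02 and an interval of 0.880 to 1.19. Low protein rats 5 and 6 and control rat 4 stood apart at 5.04 to 5.08, and all 3 lay on slide 2, whose remaining liver, control rat 2, had 4.75. Irrespective of diet, slide 2 was above slide 1 by 0.27 ± 0.075 for Slc10a1 (limma unadjusted p = 0.00403, adjusted p = 0.131), where 1.69% of all genes were called between slides. Abcb11, the canalicular pump that exports bile acids, lay within 4.03 to 4.23 in low protein and 3.94 to 4.34 in control livers. Its difference was 0.013 ± 0.083, with a ratio of 1.01 and an interval of 0.891 to 1.14, and its second probe gave 0.016 ± 0.11.

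**Figure D2:**
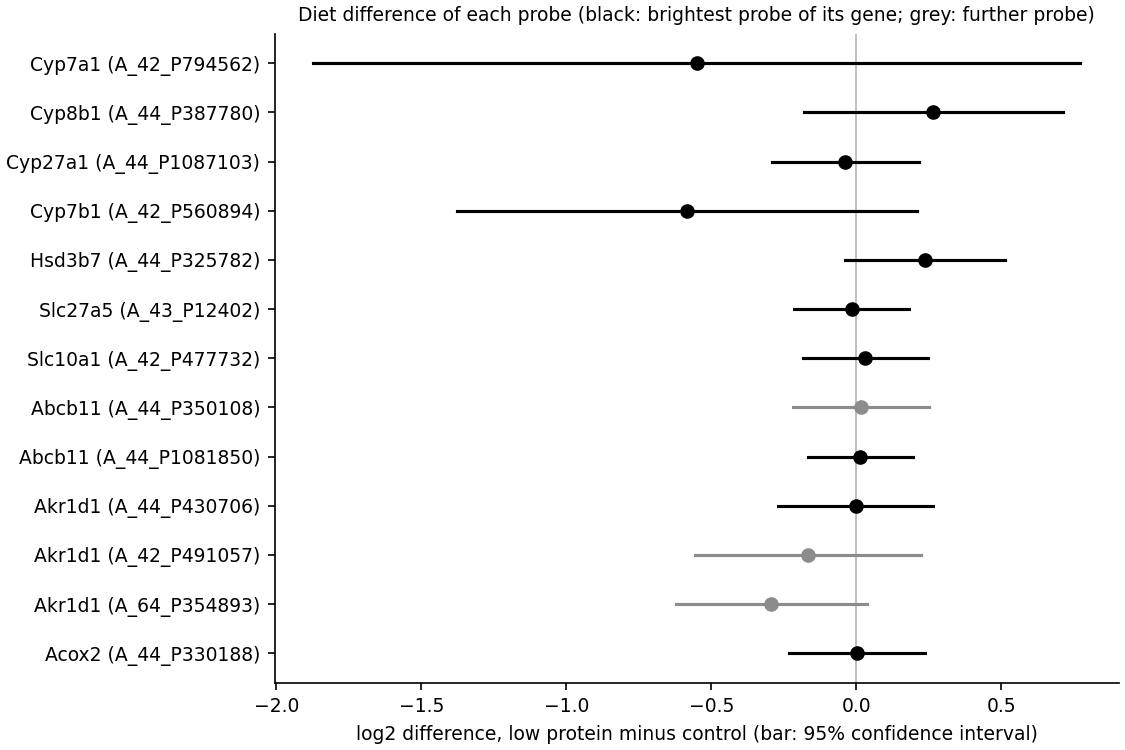
Log2 difference, low protein minus control (x axis), of each of the 13 probes with its 95% confidence interval, the brightest probe of each gene in black and further probes in grey. Every interval spans 0, and those of Cyp7a1 and Cyp7b1 are the widest.

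The spread between rats of 1 diet set the 10 genes apart from each other. Its SD was 1.18 for Cyp7a1, which exceeded 99.8% of genes of like signal, and 0.70 for Cyp7b1, which exceeded 98.2%. Cyp8b1, at 0.39, exceeded 92.0%, and Cyp27a1, at 0.20, exceeded 84.4%. At the other end Abcb11 had 0.13, above 53.9% of genes of like signal, and Slc27a5 had 0.15, above 63.9%. Hsd3b7, Acox2, Slc10a1 and Akr1d1 lay between, at percentiles of 69.3, 65.7, 72.5 and 76.0. The genes of the first and last steps were thus unlike in precision: the interval of Cyp7a1 covered a range of ratios of 0.273 to 1.71 where that of Abcb11 covered 0.891 to 1.14.

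**Figure D3:**
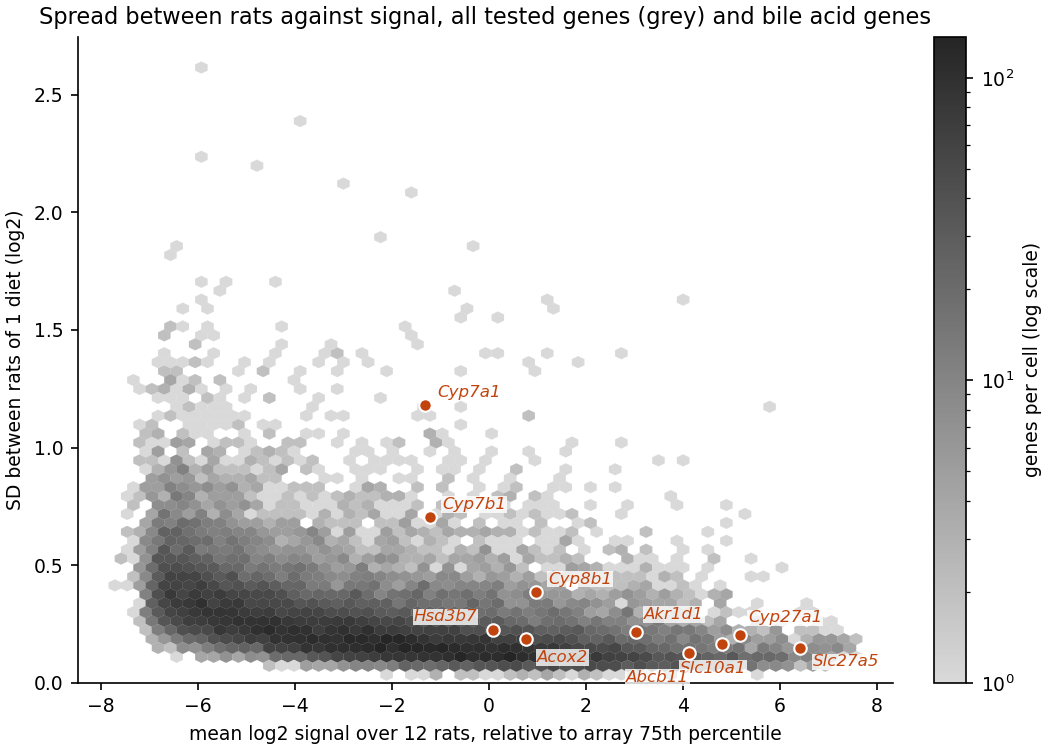
SD between rats of 1 diet on the log2 scale (y axis) against mean log2 signal over 12 rats (x axis), as grey cells shaded by the number of genes for all genes tested and as orange points for the 10 bile acid genes. Cyp7a1 (1.18) and Cyp7b1 (0.70) lie above most genes of their signal. Abcb11 (0.13) has the lowest SD of the 10 bile acid genes, which is above 53.9% of genes of like signal.

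Within slides, the diet difference of Cyp7a1 was -0.37 on slide 1 and -0.91 on slide 2, and that of Cyp8b1 was 0.17 on slide 1 and 0.47 on slide 2. The interaction of diet and slide was called for 0% of all genes, and for the bile acid genes its limma adjusted p was 1.00 for each. Cyp7a1 itself was higher on slide 2 by 1.22 ± 0.57, which did not pass (limma unadjusted p = 0.0559, adjusted p = 0.449).

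After removal of the diet means, the 45 pairs of bile acid genes had Pearson correlations over 12 livers from -0.67 to 0.68, of which 28 were above 0. No pair passed Benjamini-Hochberg adjustment over the 45, and 3 had an unadjusted permutation p under 0.05 by Pearson and 4 by Spearman. Below, the 2 farthest livers of a pair are those farthest from the median of its first-named gene, after removal of the diet means. Slc27a5 and Akr1d1 had the highest value (r = 0.68, permutation p = 0.0173, adjusted p = 0.484; rho = 0.64, p = 0.0375, adjusted p = 0.422), and r was 0.76 without the 2 farthest livers. It was 0.066 among low protein and 0.92 among control livers, a gap that was not tested. Akr1d1 was read here on its brightest probe alone, whose narrow spread in low protein livers was not seen on its other probes. Hsd3b7 and Acox2 had the lowest (r = -0.67, permutation p = 0.0337, adjusted p = 0.484; rho = -0.68, p = 0.0342, adjusted p = 0.422), and r was -0.79 without the 2 farthest livers. Cyp8b1 and Slc10a1 gave r = 0.63 (permutation p = 0.0322, adjusted p = 0.484; rho = 0.26, p = 0.418, adjusted p = 0.903), which was -0.049 without the 2 farthest livers and so rested on them.

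Cyp8b1 and Cyp27a1 were opposed without passing adjustment (r = -0.60, permutation p = 0.0538, adjusted p = 0.484; rho = -0.76, p = 0.0109, adjusted p = 0.422). By diet, r was -0.51 among low protein and -0.67 among control livers. Without the 2 farthest livers r over both diets was -0.89. It was -0.93 within slide 1 (4 livers per diet) and -0.83 within slide 2 (2 livers per diet). The 2 values of a diet on slide 2 mirror each other once the diet mean is removed, so that r says little. With slide means removed as well as diet means, r was -0.84 and its adjusted permutation p was 0.0400, the 1 pair of 45 to pass in that form. The mirrored values of slide 2 enter that r too. Cyp27a1 ran from 5.04 to 5.60 in rats numbered 1 to 3 and from 4.87 to 5.24 in rats numbered 4 to 6. Cyp8b1 ran from 0.43 to 0.96 and from 0.68 to 1.77 in those sets. The permutation did not hold rat number fixed, and the pair was not tested within those sets.

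Cyp8b1 was also set against 13 genes of the circadian clock, as were Cyp7a1 and Cyp7b1, a comparison chosen after the values had been seen. Of these 39 pairs 0 passed adjustment by permutation and 11 had an unadjusted p under 0.05, of which 8 were of Cyp8b1, 3 of Cyp7b1 and 0 of Cyp7a1. Permutation was within diets only, so it did not hold rat number fixed. The 8 include Dbp and Bmal1, whose values lay in separate ranges in rats 1 to 3 and rats 4 to 6. Other clock genes of the 8 split in the same way, so the 8 are not separate results. The share of all genes at such a p with Cyp8b1 was not computed. Cry2, a clock repressor, had a positive correlation with Cyp8b1 that did not pass adjustment (r = 0.89, permutation p = 0.0015, adjusted p = 0.0589; rho = 0.86, p = 0.0023, adjusted p = 0.0916). Without the 2 livers farthest from the median of Cyp8b1 r was 0.86, and with diet and slide means removed it was 0.90 (adjusted p = 0.156). Both genes tended to be higher in rats numbered 4 to 6, at 0.68 to 1.77 for Cyp8b1 and 0.05 to 1.58 for Cry2, than in rats numbered 1 to 3, at 0.43 to 0.96 and -0.21 to 0.78. Over the 6 livers within each set, r was 0.83 (exact permutation p = 0.139) in rats 4 to 6 and 0.82 (exact permutation p = 0.222) in rats 1 to 3. The order in which livers were collected is not given in the labels. Low protein rat 6 was highest in both genes, with 1.77 for Cyp8b1 and 1.58 for Cry2, and control rat 4 followed in Cyp8b1 with 1.46 beside 0.99 for Cry2. For Dbp, a clock output factor, livers fell into separate ranges, so its pooled correlation, though counted among the 8, is not given. In low protein rats 1, 2, 3, 4, 5 and 6 it was -0.51, -0.14, -0.39, 1.79, 2.25 and 4.00, and in control rats of the same numbers it was -0.33, 0.30, 0.20, 1.42, 1.08 and 3.71. Rats of both diets were found at both ends, and the part of the clock in the spread of the bile acid genes was not tested.

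**Figure D4:**
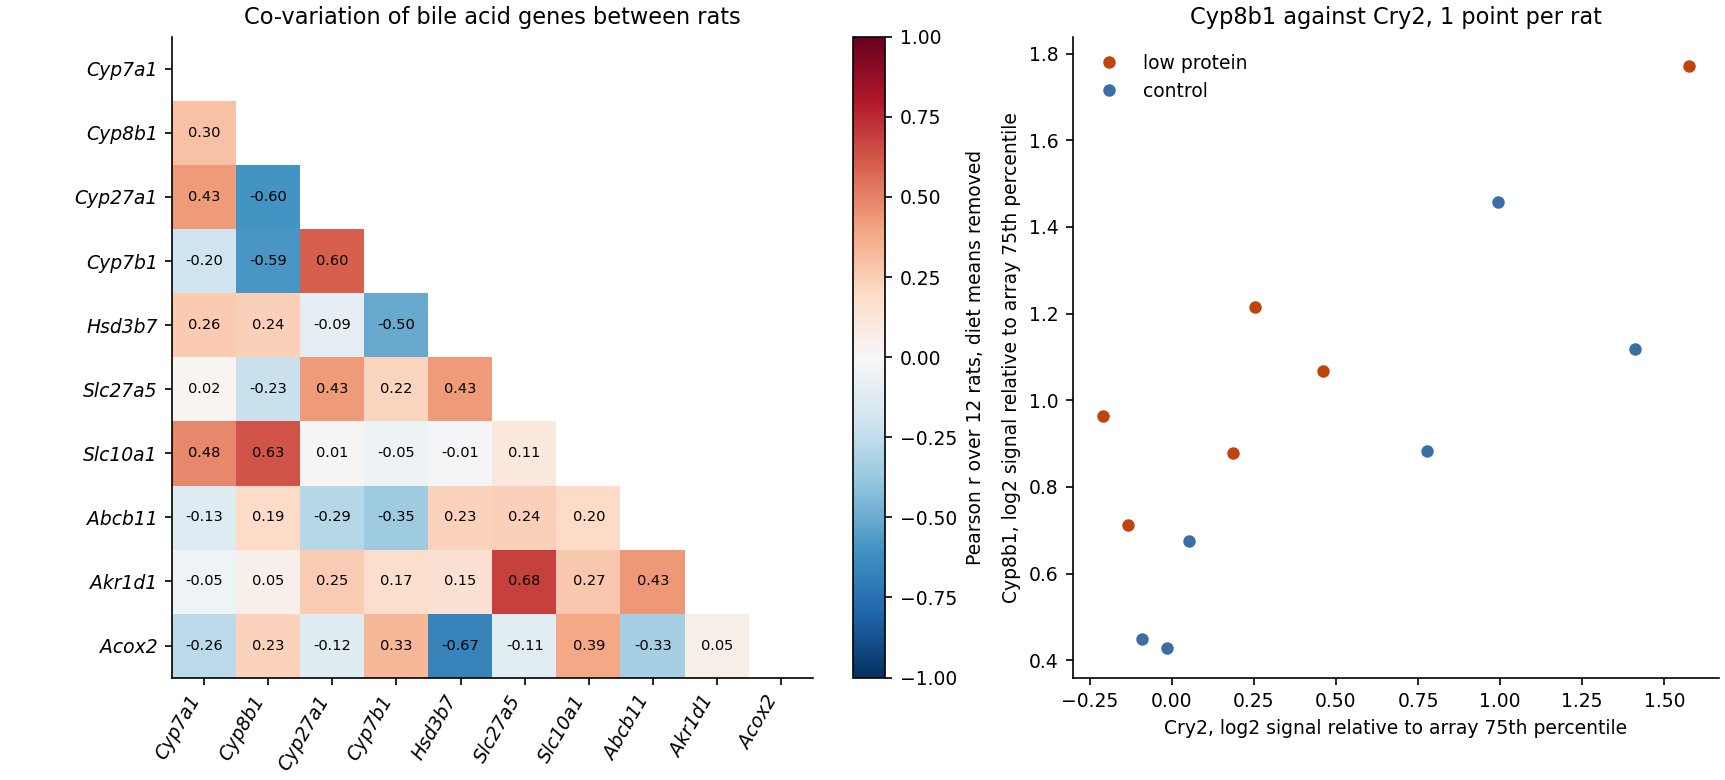
Left, Pearson r over 12 livers for each pair of bile acid genes after removal of the diet means, by colour and number, from -0.67 to 0.68. Right, log2 signal of Cyp8b1 (y axis) against Cry2 (x axis), relative to the array's 75th percentile, with 1 point per low protein (orange) or control (blue) liver, the highest being low protein rat 6 at 1.77 and 1.58.

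Diet means were left in for the next comparison, unlike in the correlations above, so its r values are not on the same footing. Among 11399 other named genes, those with the most similar profile over the 12 livers were listed by Pearson r as a description. For Cyp7a1 they were Vamp8 (0.92), Taldo1 (0.84) and Acyp2 (0.83). For Cyp8b1 they were Tert (0.96), Ankrd10 (0.92) and Large2 (0.92), and for Cyp7b1 they were Slc35f1 (0.86), Thbs4 (0.86) and Carmil1 (0.84). None of these 9 passed the limma test between diets.

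Of 15 other synthesis genes tested 0 were called higher and 0 lower by limma, where 3.48% and 3.05% of all genes were, with 1 at an unadjusted p under 0.05 and a median change of -0.041. That gene was Scp2, a sterol carrier that is also a thiolase, at -0.19 ± 0.073 (limma adjusted p = 0.152). Abcd3, a peroxisomal importer, gave -0.20 ± 0.097 (limma adjusted p = 0.253), and Baat, which joins the bile acid to its amino acid, gave -0.041 ± 0.081. Of 12 other transporters 0 were called by limma in either direction, where 6.53% of all genes were, with 1 at an unadjusted p under 0.05 and a median of -0.14. Abcg2, an efflux pump, was that one at -0.42 ± 0.16 (limma adjusted p = 0.144), and Slc10a2, the apical uptake carrier of bile duct and ileum, gave -0.23 ± 0.12.

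Of 16 nuclear receptors and signals that control these genes, 1 rose and 2 fell in low protein livers, beside 3.48% and 3.05% of all genes. Nr1i3, the xenobiotic receptor CAR, rose by 1.01 ± 0.20 (limma adjusted p = 0.0101), with 0.27, 1.04 and 1.19 in low protein and -0.63, 0.09 and 0.27 in control livers (lowest, median, highest). Its diets met only at low protein rat 3 and control rat 1, both at 0.27. Fgfr4, the receptor through which the ileal hormone FGF15 represses Cyp7a1, fell by 0.40 ± 0.083 (limma adjusted p = 0.0146). All 6 low protein livers, at -3.54 to -3.38, lay below all 6 control livers, at -3.25 to -2.81, and the call was lost without scaling (adjusted p = 0.195) and with no filter on dim probes (0.0534). Nr5a2, whose protein LRH-1 drives Cyp7a1 and Cyp8b1, fell by 0.38 ± 0.099 (limma adjusted p = 0.0406), but the call was lost in 10 of 12 fits that left out 1 rat (adjusted p up to 0.0809). Nr1h4, the bile acid receptor FXR, gave 0.36 ± 0.13 (limma adjusted p = 0.133), and Nr0b2, the repressor SHP that FXR induces, gave 0.48 ± 0.50 (adjusted p = 0.635).

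Of 7 genes that detoxify bile acids 1 rose and 1 fell, beside 3.48% and 3.05% of all genes. Cyp3a2, a sterol and drug oxidase, rose by 0.54 ± 0.13 (limma adjusted p = 0.0310), with 6.05 to 6.34 in low protein and 5.22 to 6.18 in control livers. Cyp3a9 fell by 1.20 ± 0.28 (limma adjusted p = 0.0271), with -1.32 to 0.80 in low protein and 0.63 to 1.04 in control livers. The call of Cyp3a2 was lost in 9 and that of Cyp3a9 in 6 of the 12 fits without 1 rat, and both were lost with no filter on dim probes. Of 12 cholesterol genes 1 rose and 3 fell, beside the same shares. Soat2, which esterifies cholesterol, rose by 0.63 ± 0.12 (limma adjusted p = 0.00727), with all low protein livers (-1.48 to -0.96) above all control livers (-2.17 to -1.54). Insig1, which retains the sterol sensor in the endoplasmic reticulum, fell by 1.84 ± 0.49, Npc2 by 0.41 ± 0.10 and Lipc by 0.43 ± 0.11 (limma adjusted p = 0.0437, 0.0315 and 0.0322 in that order). The calls of Insig1, Npc2 and Lipc were lost in 11, 7 and 8 of the 12 fits without 1 rat, and all 3 were lost with no filter on dim probes. Of 9 targets of LXR, the oxysterol receptor that induces Cyp7a1 in rat, 0 were called by limma, beside 6.53% of all genes, with 3 at an unadjusted p under 0.05 and a median of -0.21. Srebf1, its lipogenic target, was 2.64, 3.18 and 3.94 in low protein and 3.21, 4.14 and 4.39 in control livers (-0.86 ± 0.25, limma adjusted p = 0.0591), and passed without low protein rat 1 or without control rat 3.

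**Figure D5:**
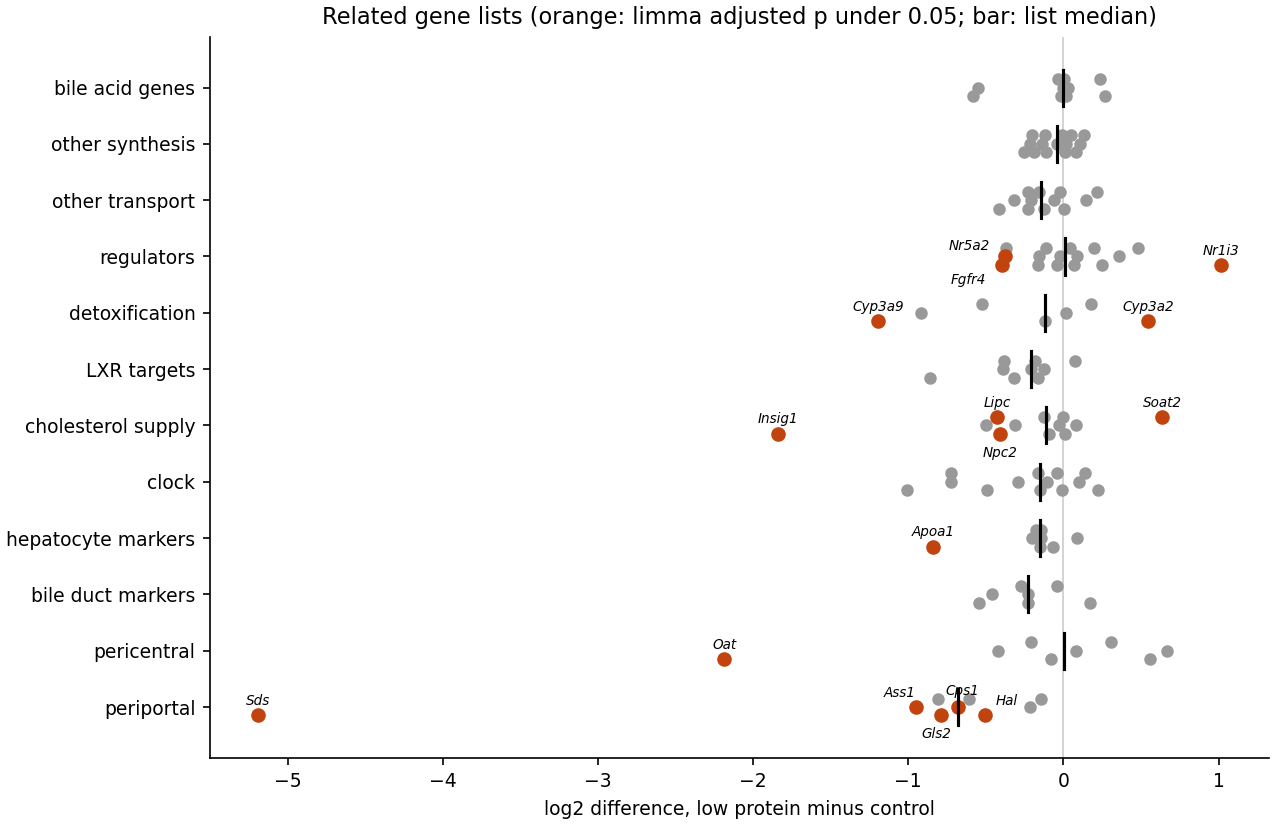
Log2 difference, low protein minus control (x axis), of each gene tested in the bile acid list and 11 related lists (rows), with genes at a limma adjusted p under 0.05 in orange and named, others in grey, and a bar at the median of each list. The 10 bile acid genes lie between -0.58 and 0.27 with none in orange.

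Markers of liver cell types were read for their whole lists, as signal summed in units of each array's 75th percentile. Their counts stand beside 3.48% of all genes called higher, 3.05% called lower and 21.6% at an unadjusted p under 0.05. Hepatocyte markers summed to 704 to 907 in low protein and 822 to 955 in control livers. Of these 8, 0 were higher and 1 was lower (Apoa1, -0.84 ± 0.14, limma adjusted p = 0.00387), with 3 at an unadjusted p under 0.05. The 10 bile acid genes, which hepatocytes express, summed to 166 to 199 in low protein and 154 to 197 in control livers. Bright genes dominate this sum. The mean log2 level in low protein livers was 6.42 for Slc27a5, beside -1.59 for Cyp7a1 and -1.51 for Cyp7b1, so it says little of those 2 genes. Bile duct markers were dim, at 0.258 to 0.405 in low protein and 0.334 to 0.496 in control livers, with 0 of 7 called by limma and 2 at an unadjusted p under 0.05. Kupffer cell markers summed to 17.7 to 24.6 in low protein and 17.4 to 35.5 in control livers, with 0 of 8 called and 6 at an unadjusted p under 0.05. All 8 had lower means in low protein livers, with changes of -0.72 to -0.24. None of 8 stellate (1 unadjusted), 7 endothelial (0 unadjusted) and 5 blood cell genes (1 unadjusted) was called. Of 13 clock genes 0 were called by limma and 0 had an unadjusted p under 0.05. Of 8 pericentral genes, named for the zone around the central vein where Cyp7a1 is expressed, 1 fell (Oat, by 2.18 ± 0.26) and 2 had an unadjusted limma p under 0.05. Of 9 periportal genes 5 fell, namely Sds, Gls2, Cps1, Ass1 and Hal, which handle amino acid nitrogen, by 5.19, 0.79, 0.68, 0.95 and 0.50 with limma adjusted p from 0.00194 to 0.0254, where 3.05% of all genes were called lower. An unadjusted limma p under 0.05 was found for 8 of the 9, where 21.6% of all genes had one. The part of these lists in the bile acid gene values was not tested.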

How the data were processed

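Per the labels, total liver RNA was labelled with Cy3 and hybridised to single-colour arrays, which also give the diet and number of each rat but no link between equal numbers of the 2 diets, and p-values measure the spread between these samples. The authors deposited scanner files that, per the file headers, Agilent Feature Extraction 12.0.3.1 made, with processed signal intensity corrected for background. Arrays were not scaled to each other. The deposited value table equalled the median signal intensity at 100% of spots.

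Genes were named through each probe's RefSeq accession and a GRCr8 table, which named 46.5% of 45598 probes. Coordinates of probes are not given, as the headers name another build. Log2 of the processed intensity in the deposited files, less the 75th percentile over 58717 non-control spots, was averaged over spots of a probe, with outlier spots left out. No spot was saturated. A probe was kept if, in either diet, 5 or more of the 6 arrays had it well above background, and the brightest probe of each gene was tested. limma 3.58.1 in R 4.3.3, with lmFit and a two-sided eBayes test, gave p, adjusted by Benjamini-Hochberg over all genes, or over all probes for the values of further probes, and 95% intervals. The number of arrays limits the precision. SD of negative control spots was 1.18 to 1.58 on low protein and 1.11 to 1.32 on control arrays. Correlations used 100000 permutations within diets. Figures were drawn with matplotlib 3.10.9 and Python 3.11.15. Tables were handled with numpy 2.4.6, with pandas 2.3.3 and with data.table, version 1.17.8.

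On simulated data for this comparison with 21874 genes, the test recovered 50.7% of changes of 1.5-fold, 73.1% of those of 2-fold and 98.5% of those of 4-fold, and 3.27% of its calls were false. These shares are over all changed genes and do not give the recovery for a single gene. Cyp7a1 and Cyp7b1 had standard errors of 0.61 and 0.37, above the median of 0.13, so the shares do not carry over to them. The members and lists were chosen with earlier results of these data known. Text names all 10 genes and per list up to 4 called genes of smallest adjusted p, or up to 2 of smallest p where none was called. Baat, Nr1h4, Nr0b2, Hal, Cry2 and Dbp were named after their values were seen, and 1 gene of the cholesterol list is not reported here. Alternatives covered background, scaling, the deposited values, filters, probes per gene, slide, rat number and each rat left out. Normexp used the median signal, since a mean signal column was not given.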

Additional observations from a re-analysis of the deposited data

Results flagged for a closer look

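In 8 cases a value lay far from the other 5 livers of its diet by Dixon's test, among 91 groups of 6 livers and 1 group of 5 tested for 43 genes and 3 further probes. Chance alone flags about 5% of such groups. Among the bile acid genes, control rat 1 had 0.34 for Hsd3b7, where the next control liver had -0.05. Control rat 4 had 5.08 for Slc10a1, where the next had 4.76, and this liver lay on slide 2. Control rat 1 had 2.33 on the dimmer Abcb11 probe, where the next had 1.99, and 4.34 on the brighter one, the highest control value there. The low Cyp7a1 value of low protein rat 3 was not among the 8.

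In related genes, low protein rat 1 had 6.34 for Cyp3a2 and low protein rat 3 had 0.27 for Nr1i3, where the nearest livers of the diet had 6.15 and 0.85. Control rat 3 had 3.21 for Srebf1, and without it the fall of Srebf1 passed the limma test. Control rat 1 had 3.18 for Oat. Control rat 6 had -2.40 for Pdgfrb, a stellate cell gene.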

How the results depend on the processing

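Under 26 alternatives, 12 of which left out 1 rat, limma called 0 bile acid genes in either direction and 0 of their probes, also with the replicate block. Cyp7a1, Cyp8b1, Cyp7b1 and Hsd3b7 kept their direction in all 26. The 6 genes near 0 did not. Akr1d1, on its brightest probe, was 0.020 with normexp, 0.13 without scaling, 0.017 from the deposited values and 0.13 on slide 1. The Akr1d1 probe with a difference of -0.29 stayed below 0 in every setting, at -0.48 to -0.16. Its unadjusted limma p was under 0.05 in 4 settings. The remaining Akr1d1 probe ran from -0.57 to 0.035. Slc27a5 was 0.0069 with quantile normalization, 0.12 without scaling and 0.040 on slide 1. Quantile normalization gave -0.053 for Slc10a1, -0.072 for Abcb11 and -0.016 for Acox2. Slide 1 gave -0.024 for Slc10a1, -0.0092 for Acox2 and 0.063 for Cyp27a1, which was 0.095 without scaling. Leaving out 1 rat gave -0.084 to 0.066 for Akr1d1, -0.068 to 0.019 for Slc27a5, -0.018 to 0.089 for Slc10a1, -0.022 to 0.058 for Abcb11, -0.052 to 0.068 for Acox2 and -0.10 to 0.044 for Cyp27a1. Of the related genes, Pecam1 was 0.019 without scaling, Cftr 0.26 with outlier spots kept and 0.32 on slide 2, Per2 0.016 and Abcd3 0.014 on slide 2.

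The count of all genes called, 1429, was 891 without scaling, 618 with no filter on dim probes, 164 on slide 1, 12 on slide 2 and 437 at an adjusted p under 0.01. Leaving out 1 rat gave 856 (without control rat 3) to 1307. Slides hold fewer rats, and the cause of the other shifts was not tested. Without scaling the median change of all genes was 0.11, with 679 called higher and 212 lower. Deviations of same-numbered rats correlated at 0.103 to 0.259 for 5 of the 6 numbers and at 0.0335 for the other, and the labels do not link numbers, so rats were not paired. The fit with the replicate block called 1411 genes and gave Hsd3b7, higher in the low protein rat of each number, an unadjusted p of 0.0571 and an adjusted p of 0.229. Co-variation gave 1 pair of bile acid genes with diet and slide means removed, in place of 0. Of 15 called related genes (Hal was not rerun), 4 were lost without scaling (Fgfr4, Nr5a2, Npc2 and Lipc, adjusted p 0.154 to 0.463). With no filter 7 were lost, these 4 with Cyp3a9, Cyp3a2 and Insig1 (0.0534 to 0.120), and quantile normalization lost Nr5a2 (0.0557). Slide 1 alone lost 13 of the 15, slide 2 alone lost all 15, and a limit of adjusted p under 0.01 lost 10. The number of livers and the spread of Cyp7a1 limit what its test can show.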

Other observations

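Clock genes other than Dbp also fell into separate ranges across livers of both diets. Bmal1, a core activator of the clock, was 0.20, 0.27 and 0.34 in low protein rats 1, 2 and 3 and -1.22, -1.52 and -4.20 in low protein rats 4, 5 and 6. In control rats 1, 2 and 3 it was 0.15, 0.34 and 0.33, and in control rats 4, 5 and 6 it was -0.56, -0.56 and -1.48. Cry1, a repressor of the clock, was -0.14, -0.54 and -0.82 in low protein rats 1, 2 and 3 and -2.31, -2.71 and -1.48 in low protein rats 4, 5 and 6. Control rats 1, 2 and 3 had -0.06, -0.19 and -0.71, and control rats 4, 5 and 6 had -2.14, -2.21 and -1.79.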
